A study of Sus scrofa domesticus with 8 samples.

Results

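Transcript levels of 6 genes were followed in porcine ovarian granulosa cells over 144 h of culture. They were the growth-restraining genes CDKN1A, CDKN2B and BTG2, the kinase gene PLK2, and the cyclin E genes CCNE1 and CCNE2. Granulosa cells are the somatic cells that surround the oocyte in the follicle. The donors were 43 gilts, Landrace crossbreds whose age had a median of 170 days and whose weight is given as 98 kg. The culture medium, DMEM, held 2% fetal bovine serum, the temperature was 37 °C, and the groups differ in the labels by time in culture alone. The 4 groups are 0 h, 48 h, 96 h and 144 h, each with 2 Affymetrix whole-transcript arrays, 8 in all. Whether the arrays of a pair stand for separate animals, cultures or pools is not stated. Each p-value below therefore reflects the spread within such pairs only, which may be technical. The 6 genes were found by symbol in the array's annotation, where each had 1 feature, among 10707 named genes and 27558 features. Levels are the deposited log2 intensities, on which a difference of 1 is a doubling.

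A dividing cell passes from G1 into S phase when cyclin-dependent kinases (CDKs) phosphorylate the retinoblastoma protein and free the E2F factors. CCNE1 and CCNE2 encode cyclins E1 and E2, which both activate CDK2 at this step, and both genes are known E2F targets. CDKN1A encodes p21, an inhibitor of cyclin-CDK complexes induced by DNA damage, and CDKN2B encodes p15, an inhibitor of CDK4 and CDK6 that TGF-beta signalling is known to induce. PLK2 encodes a polo-like kinase of G1 that is induced by serum. BTG2 encodes an antiproliferative protein that binds the CCR4-NOT deadenylase, and it is an immediate early gene. In the follicle, granulosa cells proliferate until ovulation, when they leave the cycle and luteinise.

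The 2 arrays of a time correlated across features at 0.985 to 0.997. The SD of their difference was smallest at 96 h (0.162) and largest at 144 h (0.382). The lower quartile of the arrays lay between 3.13 and 3.25, and every level of the 6 genes lay above it. Of the 38 ribosomal protein genes, 11 rose and 6 fell from 48 h to 96 h, beside 13.4% and 16.0% of all features. None was called between 48 h and 144 h, where 8.64% of all features were. Whether these genes differ from other features was not tested. Of the 12 granulosa cell markers listed, 7 had a named feature, and all 7 were lower at 96 h and at 144 h than at 0 h. Their summed linear intensity fell from 10987 to 11390 at 0 h to 3895 to 3943 at 48 h, 2121 to 2217 at 96 h and 1023 to 1222 at 144 h. In a bulk sample, fewer cells of a type and less RNA per cell cannot be told apart. No feature carried the symbols of FSHR, CYP19A1, FOXL2, INHA and CYP11A1, which were not analysed here.

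Markers of other cells moved with time as well. Of 7 theca and stroma markers, 5 (PDGFRB, DCN, LUM, COL1A1 and COL3A1) were higher at each later time, INSL3 was lower and CYP17A1 stayed below the lower quartile at all times. The summed intensity of that list was 248 to 263 at 0 h and 7693 to 9629 at 144 h. All 6 measured oocyte markers were lower at each later time, with a sum of 308 to 349 at 0 h and 86.3 to 94.9 at 144 h. The 9 leukocyte markers summed to 632 to 791 at 0 h and 670 to 697 at 144 h, most of it from CD79A, which was not called against 0 h. At 144 h CD14 (0.53 ± 0.16) and LYZ (1.20 ± 0.17) were higher and PTPRC (-0.85 ± 0.19) and CD2 (-1.24 ± 0.13) lower, and AIF1 and ITGAM were below the lower quartile at all times. The 5 endothelial markers summed to 69.8 to 72.7 at 0 h and 84.2 to 98.7 at 144 h, with TEK below the lower quartile throughout. The 4 pericyte and smooth muscle markers had a sum of 471 to 527 at 0 h and 3402 to 3545 at 144 h, most of it from ACTA2, which rose by 3.82 ± 0.12. At 144 h CSPG4 was higher too, RGS5 was lower (-0.64 ± 0.19) after being higher at 48 h and 96 h, and MCAM was not called. The 4 epithelial markers ran from 66.8 to 84.9 at 0 h to 208 to 570 at 144 h, and the 3 red cell markers stayed at 21.1 to 29.6. The part of these shifts in the results below was not tested.

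Against 0 h, the inhibitor genes CDKN1A and CDKN2B and the kinase gene PLK2 rose at all later times, and BTG2 and CCNE2 fell at all later times. CCNE1 differed little at 48 h and 96 h and rose at 144 h. At 48 h, 5 of the 6 genes passed an adjusted p of 0.05 (called genes, in what follows), with 3 higher and 2 lower, where 30.0% of all features were called, 15.2% higher and 14.8% lower. At 96 h, 5 of 6 were again called, 3 higher and 2 lower, against 41.3% of all features, 19.0% higher and 22.3% lower. At 144 h, all 6 were called, 4 higher and 2 lower, against 32.1% of all features, 15.4% higher and 16.7% lower. Among the 10707 named genes, 1941 were higher and 1695 lower at 48 h, 2302 and 2508 at 96 h, and 2058 and 1883 at 144 h. The 6 genes were chosen with earlier results of these data known, so their counts, here and between later times, are a description. These comparisons share the 0 h arrays, so they do not count as independent.

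**Figure D1:**
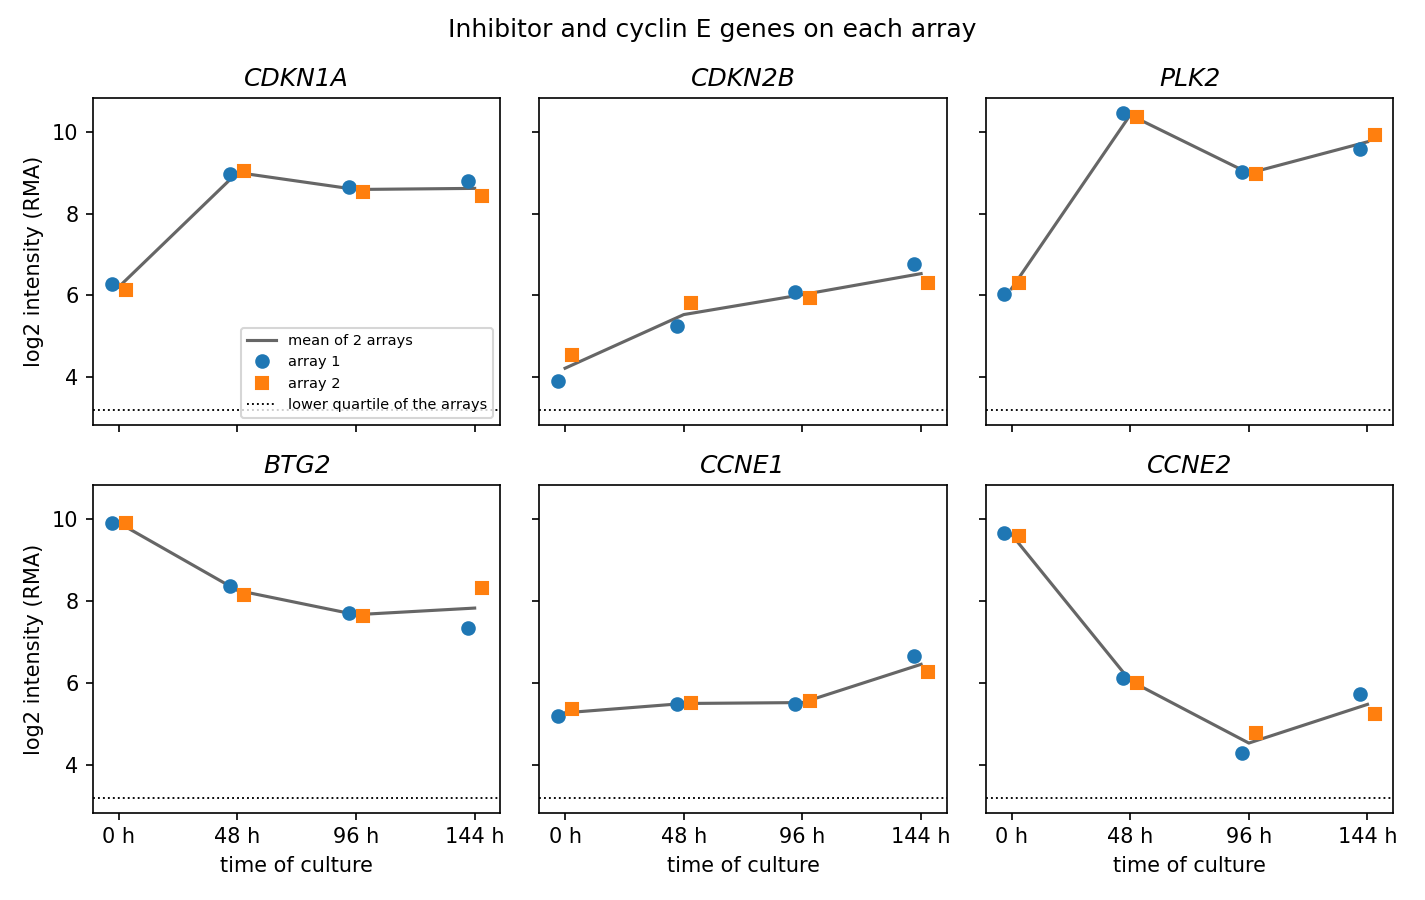
Log2 intensity (RMA) of each of the 6 genes against time of culture; circles and squares are the 2 arrays of a time, lines join their means, and the dotted line marks the arrays' lower quartile, near 3.2. CDKN1A and PLK2 were highest at 48 h, CDKN2B and CCNE1 at 144 h, and BTG2 and CCNE2 at 0 h.

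Between the later times fewer of the 6 genes changed. From 48 h to 96 h, PLK2 and CCNE2 fell and none rose, or 2 of 6 against 29.4% of all features (13.4% higher, 16.0% lower). From 96 h to 144 h, PLK2, CCNE1 and CCNE2 rose and none fell, against 22.2% of all features (12.1% higher, 10.1% lower). Between 48 h and 144 h, CCNE1 was higher and PLK2 lower, against 8.64% of all features (4.32% higher, 4.32% lower). By the moderated F test over the 4 times all 6 genes changed, with adjusted p from 1.76e-06 for PLK2 to 0.00109 for CCNE1, where 47.5% of all features did.

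CDKN1A, the p21 gene, stood at 6.28 and 6.13 on the 0 h arrays and at 8.96 and 9.04 at 48 h. It was at 8.65 and 8.52 at 96 h and at 8.80 and 8.43 at 144 h. Both 0 h arrays lay well below the 6 later ones, which spanned 8.43 to 9.04. The rise at 48 h was 2.80 ± 0.15 (log2 difference ± SE, n = 2 per time, adjusted p = 6.20e-06), or 6.96-fold, and 196 of the 27558 features rose more. At 96 h and 144 h the differences from 0 h were 2.38 ± 0.15 (adjusted p = 6.50e-06) and 2.41 ± 0.15 (adjusted p = 8.11e-06). In order the means ran 0 h, 96 h, 144 h, 48 h. The arrays of 96 h and 144 h overlapped, and none of the 3 pairs of later times was called. The gap from 48 h to 96 h, -0.41 ± 0.15, had an adjusted p of 0.0663 and was called without either 144 h array. These omissions give the same fit for that pair. The gap from 48 h to 144 h, -0.39 ± 0.15 (adjusted p = 0.169), was called without 144 h replicate 1 (0.0298).

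PLK2 had the largest rise of the 6 genes. Its levels were 6.04 and 6.29 at 0 h, 10.46 and 10.36 at 48 h, 9.01 and 8.96 at 96 h and 9.58 and 9.93 at 144 h. From the lowest mean to the highest, the order was 0 h, 96 h, 144 h and 48 h. The rise at 48 h was 4.24 ± 0.15 (adjusted p = 1.08e-06), or 18.9-fold, with 37 features rising more. PLK2 then fell by 1.42 ± 0.15 to 96 h (adjusted p = 0.000337) and rose by 0.77 ± 0.15 to 144 h (adjusted p = 0.00883), and it ended 3.59 ± 0.15 above 0 h (adjusted p = 1.33e-06). The rise from 96 h to 144 h lost its call without either 96 h array (adjusted p = 0.0606 and 0.0704). The difference between 144 h and 48 h, -0.65 ± 0.15 (adjusted p = 0.0336), was lost in 8 of 16 alternatives. Among them were cyclic loess (0.0536), only the 4 arrays compared (0.138) and leaving out both 96 h arrays (0.0796). Leaving out either 96 h array alone gives that same fit for this pair, so these losses are not separate results. It was also lost without either 48 h array (-0.60 and -0.71) and without 144 h replicate 1 (-0.48). PLK2 was the only polo-like kinase gene of the 5 listed with a named feature. MDM2, a ubiquitin ligase gene, was higher at 48 h (0.77 ± 0.20), and at 96 h and 144 h it differed from 0 h by -0.02 and 0.42, neither called. CCNG1, the cyclin G1 gene, was higher at 48 h (0.61 ± 0.13), lower at 96 h (-0.64 ± 0.13) and higher at 144 h (0.46 ± 0.13).

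CDKN2B, the p15 gene, was called higher than at 0 h at each later time, and no difference between later times passed. Its levels were 3.90 and 4.54 at 0 h, 5.25 and 5.81 at 48 h, 6.09 and 5.94 at 96 h and 6.76 and 6.30 at 144 h. The 0 h arrays differed by 0.64 and the 48 h arrays by 0.56, gaps that 2.25% and 4.21% of features exceeded. The differences from 0 h were 1.31 ± 0.26 at 48 h (adjusted p = 0.00662), 1.80 ± 0.26 at 96 h (adjusted p = 0.000785) and 2.31 ± 0.26 at 144 h (adjusted p = 0.000277), or 4.97-fold at the end. At 48 h the gene had reached 56.7% of its 144 h difference on the log2 scale, where CDKN1A and PLK2 had reached 116% and 118%, a contrast that was not tested. The neighbouring steps of 0.49 ± 0.26 and 0.51 ± 0.26 after 48 h did not pass (adjusted p = 0.212 and 0.215). The difference between 144 h and 48 h, 1.00 ± 0.26, missed the threshold (adjusted p = 0.0569) and passed without dim features (0.0419), with trend and robust (0.0490) and without 144 h replicate 2 (0.0442).

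The TGF-beta pathway genes measured beside CDKN2B moved both ways. Of 15, 6 were higher and 6 lower at 48 h, and 6 were higher and 7 lower at both 96 h and 144 h. Over all features, 15.2%, 19.0% and 15.4% were higher and 14.8%, 22.3% and 16.7% lower at the 3 times. The ligand gene TGFB1 rose from a mean of 4.68 to 6.95 at 48 h, 8.05 at 96 h and 7.06 at 144 h, differences of 2.28 ± 0.17, 3.37 ± 0.17 and 2.39 ± 0.17 (largest adjusted p = 3.48e-05). The type I receptor gene TGFBR1 was higher at 48 h (0.99 ± 0.20) and 144 h (0.79 ± 0.20), and at 96 h it differed by 0.51 ± 0.20 (adjusted p = 0.0728). SMAD7, a feedback inhibitor and target of the pathway, rose from a mean of 2.74, below the lower quartile, to 5.73, 7.58 and 6.32. TGFB1 and SMAD7 had their highest means at 96 h, and CDKN2B had its highest at 144 h, although its step from 96 h to 144 h was not called. Whether these genes are linked here was not tested. The product of MYC represses CDKN2B and CDKN1A. MYC was called higher at 96 h (1.05 ± 0.31, adjusted p = 0.0268) and 144 h (1.04 ± 0.31, adjusted p = 0.0351). Its 144 h arrays lay far apart, at 6.78 and 7.88, with the 0 h arrays at 6.13 and 6.44. By the moderated F test over all times MYC did not pass (adjusted p = 0.0612). TGFB2 and SMAD3 were not analysed here for want of a named feature.

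The other 3 measured genes of the CDK inhibitor list were lower at 48 h and 144 h, and 2 of them at 96 h. The shares of all features called lower were 14.8% at 48 h, 22.3% at 96 h and 16.7% at 144 h. CDKN2C, the p18 gene, fell from a mean of 6.66 to 5.17 at 48 h, 3.82 at 96 h and 4.33 at 144 h, differences of -1.49 ± 0.13, -2.84 ± 0.13 and -2.32 ± 0.13 (largest adjusted p = 9.96e-05). CDKN2D, the p19 gene, differed by -0.51 ± 0.14 at 48 h (adjusted p = 0.0235), -0.36 ± 0.14 at 96 h (adjusted p = 0.0706) and -0.67 ± 0.14 at 144 h (adjusted p = 0.00634). CDKN3, named after its value was seen, encodes a phosphatase of CDKs that rises in dividing cells, and it differed by -0.68 to -1.32. CDKN1B, CDKN1C and CDKN2A lacked a named feature and were not analysed here.

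BTG2 was the restraining gene that fell. Its levels were 9.90 and 9.91 at 0 h, 8.37 and 8.15 at 48 h, 7.70 and 7.63 at 96 h and 7.35 and 8.31 at 144 h. The 0 h arrays lay above all others, and the 144 h arrays lay on both sides of the 96 h arrays and overlapped those of 48 h. The differences from 0 h were -1.65 ± 0.27 at 48 h (adjusted p = 0.00227), -2.24 ± 0.27 at 96 h (adjusted p = 0.000243) and -2.08 ± 0.27 at 144 h (adjusted p = 0.000529), or 3.14-, 4.74- and 4.24-fold lower. None of the 3 pairs of later times was called. The 144 h arrays differed by 0.96, a gap that 2.21% of features exceeded, and these arrays decided the calls between later times. Without either of them the 96 h level was called lower than the 48 h level (-0.59). These omissions give the same fit for that pair, which was not called with all arrays (adjusted p = 0.139). Without 144 h replicate 1 the rise from 96 h to 144 h was called (0.64, adjusted p = 0.0133), and without 144 h replicate 2 the fall from 48 h to 144 h was called (-0.91, adjusted p = 0.00572).

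The relatives of BTG2 did not all follow it. BTG1, an antiproliferative gene of the same family, fell by 0.47 ± 0.11, 0.96 ± 0.11 and 0.86 ± 0.11 at the 3 later times, and TOB1 fell by 0.72 ± 0.14, 1.40 ± 0.14 and 0.82 ± 0.14. BTG3 rose by 0.88 ± 0.16, 0.86 ± 0.16 and 1.29 ± 0.16 (largest adjusted p = 0.00396). Of 11 measured BTG, TOB and CCR4-NOT genes outside the 6, 5 were lower and 2 higher at 48 h, 8 and 2 at 96 h, and 6 and 1 at 144 h. BTG4, named after its values were seen, was lower at each time and is also counted among the oocyte markers. Its later means (2.52, 2.45 and 2.41) lay below the lower quartile. Over all features, 14.8%, 22.3% and 16.7% were lower and 15.2%, 19.0% and 15.4% higher at the 3 times. Immediate early genes, which are induced within minutes of a stimulus and include BTG2, were mostly lower too: of 10 measured, 6 were lower at each later time, with 2, 4 and 2 higher. EGR1 fell by 1.39 ± 0.32 at 48 h, 2.21 ± 0.32 at 96 h and 1.91 ± 0.32 at 144 h (largest adjusted p = 0.0126), with the 144 h arrays at 9.02 and 10.21. DUSP1, a phosphatase of MAP kinases, fell by 1.17 ± 0.20 at 48 h and rose above its 0 h level at 96 h (0.71 ± 0.20, adjusted p = 0.0200).

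CCNE2 had the largest fall of the 6 genes. Its levels were 9.66 and 9.59 at 0 h, 6.11 and 5.99 at 48 h, 4.28 and 4.78 at 96 h and 5.71 and 5.23 at 144 h. The 96 h arrays, the lowest, differed by 0.49, a gap that 1.14% of features exceeded at that time. The falls from 0 h were -3.58 ± 0.20 at 48 h (adjusted p = 9.34e-06), -5.10 ± 0.20 at 96 h (adjusted p = 9.04e-07) and -4.15 ± 0.20 at 144 h (adjusted p = 2.79e-06), or 11.9-, 34.2- and 17.8-fold. Only 27 features fell more at 48 h, 17 at 96 h and 35 at 144 h. CCNE2 fell further from 48 h to 96 h (-1.52 ± 0.20, adjusted p = 0.00102) and rose from 96 h to 144 h (0.95 ± 0.20, adjusted p = 0.0130). That rise was lost without 96 h replicate 1, the lower of the pair (0.70, adjusted p = 0.104), and with only the 4 arrays compared (0.0557). The 144 h and 48 h levels did not differ past the threshold (-0.58 ± 0.20, adjusted p = 0.143), although they did without 144 h replicate 1 (-0.82, adjusted p = 0.0389).

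CCNE1 did not share this fall. Its levels were 5.18 and 5.36 at 0 h, 5.48 and 5.51 at 48 h, 5.47 and 5.56 at 96 h and 6.65 and 6.26 at 144 h. The 48 h and 96 h arrays overlapped, both 0 h arrays lay just below them, and both 144 h arrays lay above all others. Against 0 h the differences were 0.23 ± 0.15 at 48 h (adjusted p = 0.305), 0.25 ± 0.15 at 96 h (adjusted p = 0.227) and 1.18 ± 0.15 at 144 h (adjusted p = 0.000460), or 2.27-fold at the end. The rise at 144 h was 0.93 ± 0.15 from 96 h (adjusted p = 0.00354) and 0.96 ± 0.15 from 48 h (adjusted p = 0.00631). The last of these was lost without 48 h replicate 1 (0.94, adjusted p = 0.0517) and with only the 4 arrays compared (0.0562).

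The contrast of the 2 cyclin E genes was measured within each array, as the CCNE1 level minus the CCNE2 level. The sign of this value carries no meaning, since the 2 features bind their targets with unequal strength, and only its change over time was read. It was -4.48 and -4.23 at 0 h, -0.63 and -0.48 at 48 h, 1.19 and 0.79 at 96 h and 0.93 and 1.03 at 144 h. The 0 h arrays lay far below the rest, the 48 h arrays came next, and the 96 h and 144 h arrays overlapped. An exact permutation test of the F statistic over all 2520 assignments of the 8 arrays to the 4 times, which is two-sided by its form, gave p = 0.0286, where 0.00952 is the smallest the design can give. With the times permuted within each replicate number, the exact p was 0.0833, where 0.0417 is the smallest possible. Both genes were chosen with earlier results of these data known, so neither p is independent support for their divergence. With 2 arrays against 2, no exact p can fall below 0.333, so single pairs of times are given with their SE.

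Most of the divergence came in the first 48 h. CCNE1 gained on CCNE2 by 3.80 ± 0.18 from 0 h to 48 h, a 13.9-fold change of their ratio, and by a further 1.54 ± 0.18 from 48 h to 96 h. From 96 h to 144 h the ratio differed by -0.01 ± 0.18, with a 95% interval of -0.51 to 0.49 from the linear model on 4 residual degrees of freedom, while both genes rose, CCNE1 by 0.93 and CCNE2 by 0.95. The whole change from 0 h to 144 h was 5.34 ± 0.18, or 40.4-fold, of which CCNE2 gave -4.15 and CCNE1 1.18. At 96 h almost all of it was the fall of CCNE2, since CCNE1 differed from 0 h by 0.25.

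**Figure D2:**
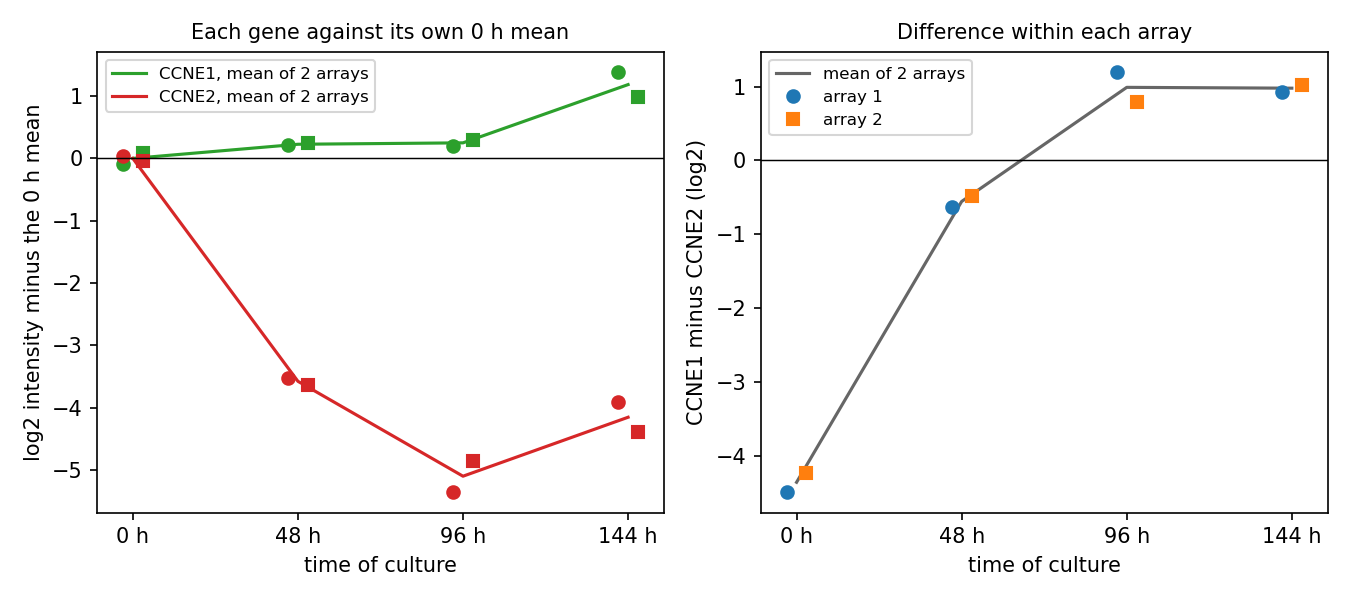
Left, log2 level of CCNE1 (green) and CCNE2 (red) minus each gene's own 0 h mean, against time; right, CCNE1 minus CCNE2 within each array. Circles and squares are arrays 1 and 2 and lines join the means. CCNE2 stood at -3.58, -5.10 and -4.15 relative to its 0 h mean, CCNE1 rose at 144 h, and the within-array difference levelled off after 96 h, at means of 0.99 and 0.98.

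The kinases and cyclins around cyclin E changed less than CCNE2. CDK2, the kinase that both cyclins E activate, differed from 0 h by -0.35 ± 0.12 at 48 h (adjusted p = 0.0650) and -0.31 ± 0.12 at 96 h (adjusted p = 0.0731) and was lower at 144 h (-0.83 ± 0.12, adjusted p = 0.00107). CDK6 was not called at any later time, and CDK4 was called higher at 144 h by 0.37 ± 0.11 (adjusted p = 0.0416). CCND2, a D-type cyclin gene that FSH induces in granulosa cells, fell from 10.91 to 9.37 at 48 h (-1.54 ± 0.13) and then stood at 10.16 and 10.25. CCNA2, the cyclin of S phase and G2, fell by 1.29 ± 0.13, 1.46 ± 0.13 and 1.09 ± 0.13 (largest adjusted p = 0.000319). Of 13 measured G1 and S phase cyclin and CDK genes outside the 6, 5 were lower and 2 higher at 48 h, 6 and 1 at 96 h, and 5 and 2 at 144 h. Over all features, 14.8%, 22.3% and 16.7% were lower and 15.2%, 19.0% and 15.4% higher at these times, and the counts are a description. CCND1, CCND3 and CDC25A lacked a named feature and were not analysed here.

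Of 6 measured E2F genes, 3 (E2F1, E2F7 and E2F8) were lower at all 3 later times. E2F1, an activator of S phase genes that include the cyclins E, fell by 2.07 ± 0.15, 1.77 ± 0.15 and 2.00 ± 0.15 at 48 h, 96 h and 144 h. The repressor genes E2F7 (by 1.64 ± 0.14 at 48 h) and E2F8 (by 2.07 ± 0.16) and RBL1, which encodes the retinoblastoma relative p107 (by 1.50 ± 0.12), fell at all 3 times. E2F3, another activator gene, was lower at 96 h (-0.64 ± 0.12) and higher at 144 h (0.48 ± 0.12, adjusted p = 0.0169). E2F5, named after its values were seen, was higher at 48 h (0.90 ± 0.15) and 144 h (0.76 ± 0.15), and E2F4 was not called at any later time. Of 10 measured RB and E2F family genes, 5, 6 and 6 were lower and 2, 0 and 2 higher at the 3 times. Over all features, 14.8%, 22.3% and 16.7% were lower and 15.2%, 19.0% and 15.4% higher. RB1, RBL2 and E2F2 were not analysed here for want of a named feature.

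The genes for the turnover of cyclin E and p21 split as well. SKP2, part of a ubiquitin ligase that degrades CDK inhibitors, fell by 1.76 ± 0.12, 2.07 ± 0.12 and 2.01 ± 0.12, and DTL, whose ligase degrades p21 in S phase, fell by 1.97 ± 0.12, 2.74 ± 0.12 and 2.16 ± 0.12 (largest adjusted p = 2.76e-05). FBXW7, whose ligase degrades phosphorylated cyclin E, was called higher at 144 h (0.78 ± 0.15, adjusted p = 0.00495), and at 48 h and 96 h it differed by 0.28 and 0.43. Of the 5 measured genes of this list, 3 were lower at each later time, and 0, 1 and 1 were higher at 48 h, 96 h and 144 h. Among all features, 14.8%, 22.3% and 16.7% were lower and 15.2%, 19.0% and 15.4% higher.

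**Figure D3:**
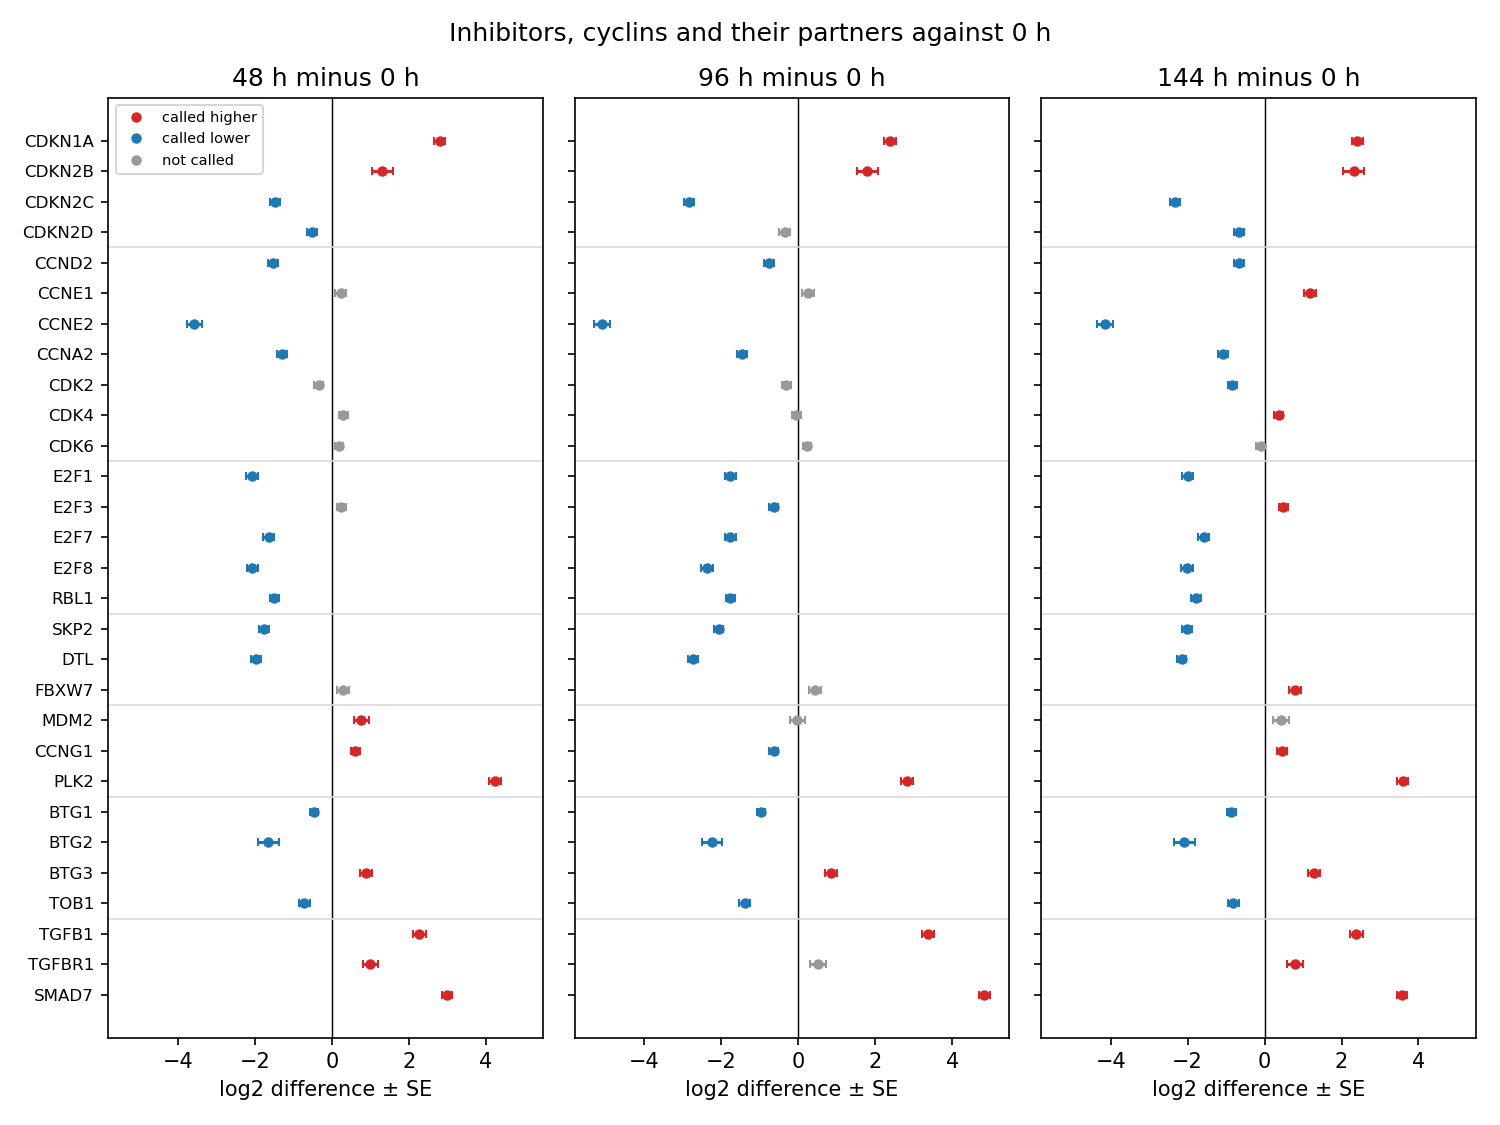
Log2 difference from 0 h at 48 h, 96 h and 144 h, with its SE, for the 6 genes and their measured partners, grouped as inhibitors, cyclins and CDKs, E2F and RB family, turnover, PLK2 with MDM2 and CCNG1, BTG and TOB family and TGF-beta pathway. Red is called higher, blue called lower and grey not called. CCNE2 and SMAD7 lie farthest out at 96 h, at -5.10 and 4.84.

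Genes of mitosis, and most of those of DNA replication, were lower than at 0 h. All 13 measured mitosis genes were called lower at 48 h, 96 h and 144 h, with medians of -1.70, -1.52 and -1.43, beside medians of -0.04, -0.03 and -0.05 over all features. Of 10 measured replication origin and fork genes, 8 were lower at each time and 1, 0 and 0 higher, with medians of -0.85, -1.16 and -0.85. ORC2, an origin recognition gene named after its values were seen, was the one called higher, at 48 h (0.71 ± 0.17, adjusted p = 0.0145). CDC45, part of the replicative helicase, fell by 1.66 ± 0.11, 2.18 ± 0.11 and 1.74 ± 0.11. CDC6, which loads that helicase, fell by 1.51 ± 0.18, 1.38 ± 0.18 and 1.31 ± 0.18. That these lists were lower was known from earlier results on the same arrays, so their direction is a description.

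**Figure D4:**
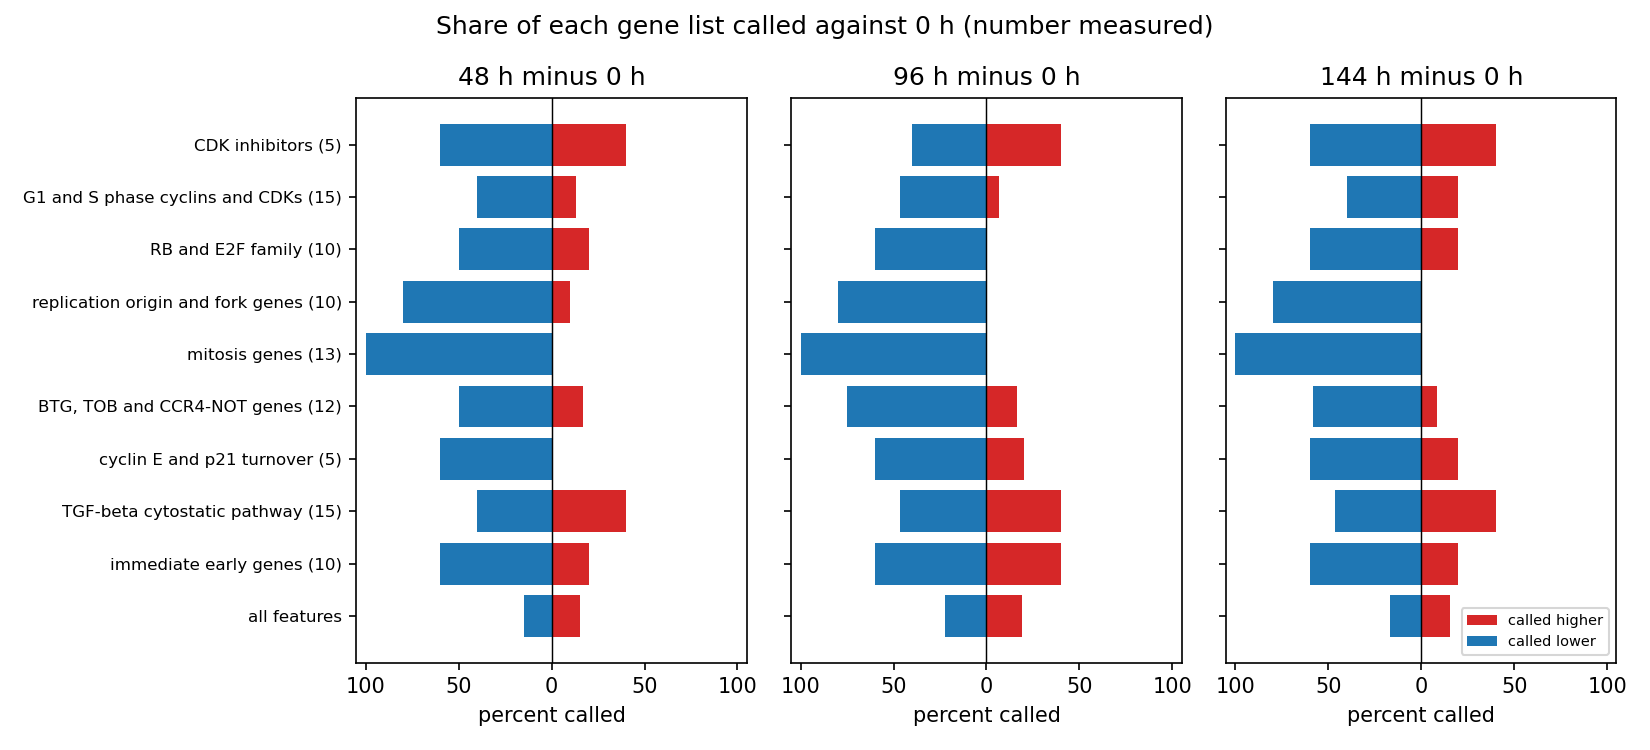
Percent of each gene list called higher (red, to the right) and called lower (blue, to the left) against 0 h at 48 h, 96 h and 144 h, with the number of measured genes in brackets and all features in the last row. All 13 mitosis genes lie on the lower side at each time, beside 14.8%, 22.3% and 16.7% of all features.

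Across the 8 arrays the 2 cyclin E genes followed different genes. CCNE2 correlated with the 13 mitosis genes at a median Pearson r of 0.927 (0.756 to 0.989) and with the 10 replication genes at a median of 0.862, with 9 of 10 above 0. CCNE1 correlated with the same genes at medians of -0.445 and -0.431, and with all 13 mitosis genes below 0. CCNE1 and CCNE2 correlated with each other at -0.448. CDKN1A and PLK2 correlated at 0.968 and CDKN1A and CDKN2B at 0.824, while BTG2 correlated with CCNE2 at 0.937 and with CDKN1A at -0.908. These values rest on 8 arrays in 4 groups that share their times, and are given as a description.

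The named genes with the closest pattern, by Pearson r over the 8 arrays, were DKK3 (0.998), TENM3 (0.996) and INPP1 (0.996) for PLK2, and HSD3B1 (0.993), SRXN1 (0.993) and RPS6KA3 (0.993) for CDKN1A. For CDKN2B they were TEX2 (0.990), SNX25 (0.987) and TRIM9 (0.987), and for BTG2 they were EMX2 (0.997), LHFPL2 (0.997) and BRD2 (0.990). For CCNE2 they were DNAH10 (0.997), ESCO2 (0.994), a cohesin acetyltransferase of S phase, and DNAJC16 (0.994). For CCNE1 they were ANO10 (0.979), ENPP1 (0.974) and ADAMDEC1 (0.974), which like CCNE1 had their highest mean at 144 h: ANO10 had means of 6.28, 6.40, 6.38 and 7.01. A pattern like that of CCNE1 was the least common, with 18 named genes at an r of 0.95 or more, against 71 for CDKN2B, 156 for PLK2, 222 for BTG2, 250 for CDKN1A and 365 for CCNE2.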

How the data were processed

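The deposited table held log2 intensities made by the authors with robust multi-array averaging (RMA, a background correction, normalization and probe summary), per the submitters' processing notes. The software behind it is not given in the sources used here. RMA brings arrays to a near-common distribution, so a shift shared by most transcripts would not show. Times and replicate numbers came from the labels, which name no batch, so time and any batch that ran with it cannot be told apart. Gene names came from the platform annotation, with 6 symbols updated through the gene identifier. Of 27558 features, 11735 had 1 symbol, 612 several and 15211 none, and the feature with the highest mean stood for a gene.

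All features on all 8 arrays were fitted with limma 3.58.1 (lmFit, then eBayes; R 4.3.3), with a mean for each time and 4 residual degrees of freedom. The moderated tests were two-sided, with Benjamini-Hochberg adjustment over all 27558 features within a comparison and calls at an adjusted p below 0.05. The number of arrays limits the precision, and no detection call was used. CCNE1 minus CCNE2 was tested by exact permutation. The steps were tested on simulated data. Alternatives were 3 further normalizations, a filter on dim features (18019 were kept, those that exceeded the 40th percentile on 2 or more arrays), eBayes with trend and robust, a fit of only the 4 arrays compared, a block for the replicate number, and leaving out each array. Leaving out both 96 h arrays was added after seeing the data. Each of the 6 genes had 1 feature, so no other feature could be tried.

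The 6 genes and the gene lists were chosen with earlier results of these data known. Named partners are a list of paralogs and direct partners, whatever their values, and for each gene the 3 named genes of highest Pearson correlation. A gene outside this rule is said to be named after its value was seen. A gene list that was set up is not reported here. Lists are described by counts and medians over their measured genes.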

Additional observations from a re-analysis of the deposited data

How the results depend on the processing

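Of 558 values of the 6 genes under 16 alternatives, 531 kept their direction and their side of the threshold or stayed uncalled, 14 lost a call, 13 gained one and none that was called changed direction. All of the changed calls lay between later times, and none lay against 0 h. Leaving out either array of a time outside a pair gives that pair the same fit, so some of these values repeat. The called features moved most between later times. For 144 h minus 48 h there were 2381, but 825 with only the 4 arrays compared, 1576 without the 96 h arrays, and 1070 to 3879 leaving out 1 array (1070 and 1231 without 48 h replicates 1 and 2, 1576 without either 96 h array, 3879 without 144 h replicate 1). Leaving out 1 array gave 2437 to 7320 for 144 h minus 96 h (6115 with all, 2437 and 2594 without 96 h replicates 1 and 2) and 4198 to 10294 for 96 h minus 48 h (8089 with all, 4198 and 4439 without 96 h replicates 1 and 2, 5214 without 48 h replicate 1). CCNE1 minus CCNE2 ran from 5.15 to 5.55 for 96 h minus 0 h, from 1.34 to 1.75 for 96 h minus 48 h and from -0.21 to 0.19 for 144 h minus 96 h, each range set by the 2 arrays of 96 h. The cause was not tested. Where a time was left with 1 array, that array was taken to vary like the other times. The exact p of CCNE1 minus CCNE2 was 0.0286 in every normalization and 0.00952 to 0.0286 leaving out 1 array.

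With the replicate number as a block, the times were permuted within each number, and the exact p was 0.0833, where 0.0417 is the smallest that 576 assignments allow. The labels do not say what a replicate number shares. The differences between replicates 1 and 2 correlated between times at -0.04 to 0.19, which shows no strong pairing of the arrays by number. Such values cannot exclude a shared source, so both ways of permuting are given. The block changed no call of the 6 genes against any time.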

Other observations

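In the TGF-beta pathway list, measured in 15 genes, SMAD6, SMAD7, TGFB1 and TGFBR2 were called higher at all 3 later times. FOXO1, SMAD2, SMAD4, SP1 and TGFBR3 were called lower at all 3. These 3 comparisons share the 0 h arrays, so repeated calls are not independent. Of all features, 15.2%, 19.0% and 15.4% were higher and 14.8%, 22.3% and 16.7% lower at the 3 times. The genes described here were named after their values were seen. TGFBR3, the co-receptor betaglycan, differed from 0 h by -3.92 ± 0.11 at 48 h, -4.46 ± 0.11 at 96 h and -4.44 ± 0.11 at 144 h, and SMAD2, a signal transducer of the pathway, by -1.70 ± 0.11, -2.16 ± 0.11 and -2.03 ± 0.11. FOXO1, an activator of growth arrest genes, differed by -0.72 ± 0.16, -1.64 ± 0.16 and -1.24 ± 0.16. TGFBR2, the type II receptor gene, stood at 4.21 at 0 h and at 5.17, 5.90 and 5.71 later (0.95 ± 0.13, 1.68 ± 0.13 and 1.50 ± 0.13).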
